A study of Mus musculus with 24 samples.

Results

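Bone marrow CD11b+ cells taken 4 weeks after myocardial infarction (MI) were compared with bone marrow CD11b+ cells of control mice, in 3 genotypes. The comparison used 6 of the 24 arrays of the series, which make 3 pairs, and covered all 26521 genes and transcripts that were measurable on them. Each array held RNA of CD11b+ cells from 5 pooled mice, described by the study as male, 10 weeks old when obtained and on a Balb/C background. The WT pair was made of WT control and WT MI 4 weeks mice. The HDC-KO pair came from mice without histidine decarboxylase, the enzyme that makes histamine, and the STAT6-KO pair from mice without the transcription factor STAT6. In both knockout pairs the control and the MI mice carried the same knockout. The labels call the comparison mice control, the study's text calls a comparison group sham, and the operation these mice had is not described further in the sources used here. Each group was 1 pool on 1 array, so the 3 genotypes served as the replicates. The standard errors (SE) are those of limma, in which a gene's own spread between genotypes is drawn towards the spread of all genes.

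CD11b is the alpha chain of the integrin Mac-1 and is carried by neutrophils, monocytes, macrophages and their later precursors. In the marrow these cells arise from dividing granulocyte and monocyte progenitors, and the finished cells are held there by chemokine receptors such as CXCR4 until they leave for the blood. After an infarct, the heart draws in large numbers of neutrophils and monocytes, which the marrow and the spleen replace.

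Levels are given as the log2 of an array's spot signal minus the 75th percentile of that array, and differences as MI 4 weeks minus control on that scale, where 1 is a 2-fold difference. A level of 1 gene cannot be set against that of another gene, because probes differ in brightness. The 75th percentile signal of the 6 arrays ran from 963 to 1780, and 75.2% to 79.8% of spots were well above background. Control always lay on position 1 of its slide and MI 4 weeks on position 4, so time and position cannot be told apart. Slides were inferred from the scan date in the array headers, and by that date each genotype had a slide of its own.

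The defining markers of the sort were present on every array. Itgam, which encodes CD11b, lay at 5.10, 5.22 and 5.85 in the WT, HDC-KO and STAT6-KO controls and at 5.60, 5.60 and 5.71 at MI 4 weeks. Its levels overlapped between the groups. Itgb2, the beta chain that pairs with CD11b, was higher in 3 of 3 pairs, by 0.61 ± 0.17 (SE, n = 3 pairs). Markers of other cells were measurable too, as all 14 B cell genes and all 13 erythroid genes tested were well above background on all 6 arrays.

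Hdc lay at 2.51 and 2.36 in the HDC-KO control and MI 4 weeks arrays and between 4.92 and 5.11 on the other 4 arrays. The level was thus lower on both arrays labelled HDC-KO, and the mean difference between MI 4 weeks and control was -0.09. Stat6 lay at 1.76 and 2.32 in STAT6-KO control and MI 4 weeks, against 2.78 and 3.21 in WT and 2.65 and 3.05 in HDC-KO. It was lower on the STAT6-KO arrays but well above background there. Whether the probe used lies in the deleted part is not given in the sources used here. Stat6 was also higher at MI 4 weeks in 3 of 3 pairs, by 0.46 ± 0.16 (SE, n = 3 pairs; limma adjusted p = 0.381). Its other probes gave mean differences of 0.78 and 0.62, with only 0.14 and 0.04 in the STAT6-KO pair.

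Sex-linked genes went against the study's description of all mice as male. A probe of Xist, the RNA that silences an X chromosome in female cells, lay at -1.60 in HDC-KO control and -1.16 in HDC-KO MI 4 weeks and was well above background on both. In the STAT6-KO pair it was well above background in control, at -3.18, and not at MI 4 weeks, at -8.69. In WT it was below that limit on both arrays, at -8.56 and -8.45. A second Xist probe was well above background on all 6 arrays, at -5.42 and -5.48 in the WT pair, -2.07 and -2.58 in HDC-KO and -3.51 and -5.44 in STAT6-KO. The Y-linked gene Ddx3y was detected on all 6 arrays, at -1.97 and -2.35 in the HDC-KO pair and between -0.89 and -0.65 in the others. Eif2s3y, also Y-linked, lay at 1.56 in HDC-KO control and 0.73 in HDC-KO MI 4 weeks, and between 2.13 and 2.65 on the other 4 arrays. Uty, a Y-linked demethylase-like gene, lay at -4.96 and -5.79 in the HDC-KO pair on one probe, and at -5.09 and, not well above background, -8.07 on the other. The levels of these Y-linked genes thus differed within the HDC-KO pair too, and the part of that in its differences was not tested. The STAT6-KO pair stood apart from the WT and HDC-KO pairs in further ways given below. The main counts are therefore also given for the WT and HDC-KO pairs alone.

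No gene passed the test across all genes. Of 26521 genes, 0 (0%) had an adjusted p under 0.05 in limma with genotype as a block, the smallest adjusted p being 0.375, while 3417 (12.9%) had an unadjusted p under 0.05, of which 1818 were higher and 1599 lower at MI 4 weeks. The methods' t-test also called 0 genes after adjustment, with 3142 at an unadjusted p under 0.05. With 3 pairs an exact sign-flip test cannot go below a p of 0.25. Differences are therefore described below by their size and by how many pairs showed them. In all, 5120 genes (19.3%) were higher in 3 of 3 pairs and 4870 (18.4%) lower in 3 of 3. A difference of at least 2-fold in the same direction in every pair was seen for 79 genes on the higher side (0.298%) and 33 on the lower side (0.124%). These counts became 1150 and 183 in the WT and HDC-KO pairs alone, where fewer pairs had to be alike, and 30 and 10 with normexp background correction.

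The 3 pairs differed from each other over the whole array. The median difference of all genes was 0.14 in WT, 0.04 in HDC-KO and -0.09 in STAT6-KO. Across genes, the WT and HDC-KO differences correlated with r = 0.45, HDC-KO and STAT6-KO with r = 0.10, and WT and STAT6-KO with r = -0.15, over 26521 genes, which are not independent replicates. The pairs share no array, but share the positions of control and MI 4 weeks on the slide. By size alone, 2882 genes were at least 2-fold higher and 1209 lower in WT, 2063 and 1820 in HDC-KO, and 1748 and 1428 in STAT6-KO.

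**Figure D1:**
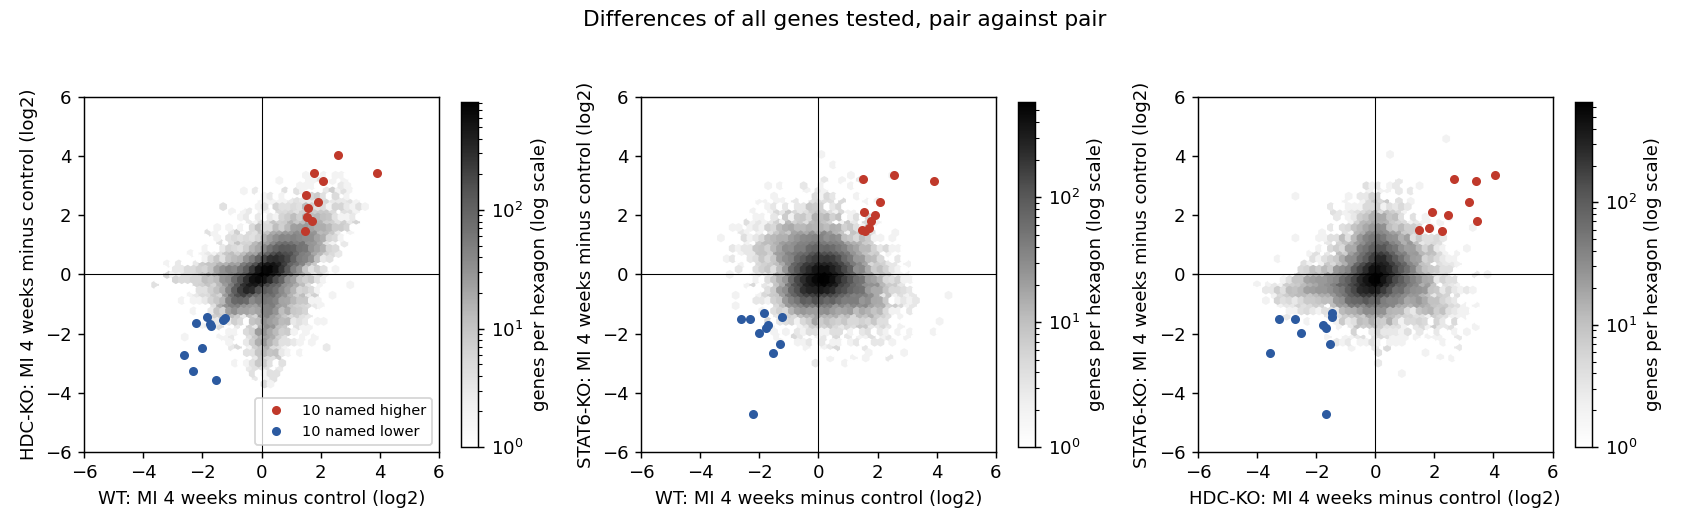
Differences of all 26521 genes (MI 4 weeks minus control, log2) in 1 genotype pair against another, as counts of genes per hexagon on a log grey scale, with the 10 leading higher genes in red and the 10 leading lower genes in blue. The cloud is drawn out along the diagonal for WT against HDC-KO (r = 0.45) and not for WT against STAT6-KO (r = -0.15), and the coloured genes lie in the same quadrant in all 3 panels because they were chosen for having the same direction in every pair.

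The leading higher gene was Hspa1a, which encodes the stress-inducible HSP70 chaperone. Its level was -3.82 in WT control and 0.09 in WT MI 4 weeks, -4.53 and -1.11 in HDC-KO, and -4.31 and -1.15 in STAT6-KO. The groups did not overlap, and the mean difference was 3.49 ± 0.22 (SE, n = 3 pairs; limma adjusted p = 0.375), or 11.3-fold. Atf3, a stress-induced transcription factor of the ATF/CREB family, lay at 2.51, 0.78 and 0.25 in the WT, HDC-KO and STAT6-KO controls and at 4.61, 3.94 and 2.70 at MI 4 weeks. Every MI 4 weeks level was above every control level. Its difference was 2.57 ± 0.27 (SE, n = 3 pairs), or 5.92-fold.

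Among signalling genes, Dusp5, a nuclear phosphatase of ERK, was 2.13 ± 0.19 higher (SE, n = 3 pairs), with levels of -2.72, -3.38 and -4.40 in control and -0.80, -0.93 and -2.38 at MI 4 weeks. Pde4b, which breaks down cyclic AMP, was 1.86 ± 0.20 higher, with levels of 0.29, 0.07 and -1.32 in control and 1.82, 2.00 and 0.78 at MI 4 weeks. Neither gene's groups overlapped. Adgrb1, an adhesion receptor that binds phosphatidylserine on dying cells, was 1.77 ± 0.23 higher.

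The chemokines Ccl7 and Xcl1 were also among the leading genes. Ccl7, which draws monocytes through CCR2, was 2.35 ± 0.41 higher (SE, n = 3 pairs), and 2 of its 3 control arrays were well above background. Xcl1, a chemokine made by T and NK cells that attracts cross-presenting dendritic cells, was 2.47 ± 0.39 higher, with differences of 1.50 in WT, 2.67 in HDC-KO and 3.23 in STAT6-KO. Foxq1, a forkhead transcription factor, was 3.33 ± 0.34 higher, and Kcnh8, a potassium channel gene, 1.49 ± 0.16 higher, each with only 1 of 3 control arrays well above background. With normexp background correction these differences were smaller, at 1.50 for Foxq1, 0.64 for Kcnh8, 1.25 for Ccl7 and 1.39 for Xcl1, and with the mean over its probes Kcnh8 had 0.30. Mcmdc2, a meiotic recombination gene, was not well above background on any control array and was at least 1.33-fold higher at MI 4 weeks. For such genes the bound compares the mean of the bright group with the lowest signals well above background on the dim arrays.

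Among the 10 leading genes that were lower at MI 4 weeks, Fkbp5, which encodes a co-chaperone of the glucocorticoid receptor, lay at 4.42, 4.83 and 4.20 in the WT, HDC-KO and STAT6-KO controls and at 2.58, 3.38 and 2.91 at MI 4 weeks. The groups did not overlap, and the difference was -1.53 ± 0.19 (SE, n = 3 pairs; limma adjusted p = 0.375). Lifr, a receptor chain for leukemia inhibitory factor, lay at 0.40, 0.59 and -0.05 in control and -1.36, -1.09 and -1.87 at MI 4 weeks, a difference of -1.75 ± 0.16. Of its other probes, one gave -1.13 and one 0.28, so the probes of Lifr disagree.

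Ccnjl, a cyclin-like gene, had a difference of -2.16 ± 0.20 (SE, n = 3 pairs) and Bcl2l15, a member of the BCL2 family, one of -2.35 ± 0.39. Bcl2l15 lay at 1.11, 2.83 and 0.91 in control and at -1.20, -0.42 and -0.58 at MI 4 weeks, and its other probes gave -3.97 and -1.24. Lipg, which encodes endothelial lipase, had the widest spread of the group, at -2.21 in WT, -1.65 in HDC-KO and -4.72 in STAT6-KO, and its mean of -2.86 became -1.62 with normexp. Htr7, a serotonin receptor gene, was not well above background on any MI 4 weeks array and was at least 3.14-fold lower there than in control. That bound holds for the processed signal used here and not with normexp, where the difference was -0.43. The remaining members were Strip2 (-2.28), Ms4a8a (-1.73), Zfp11 (-1.72) and Nrg4 (-1.38), of which Strip2 and Zfp11 had a further probe at 0.29 and -0.15, and Strip2 had -0.92 with normexp. Second probes of Nrg4 (-0.53) and, on the higher side, of Pde4b (1.02) and Adgrb1 (0.86) gave the same sign and smaller sizes.

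**Figure D2:**
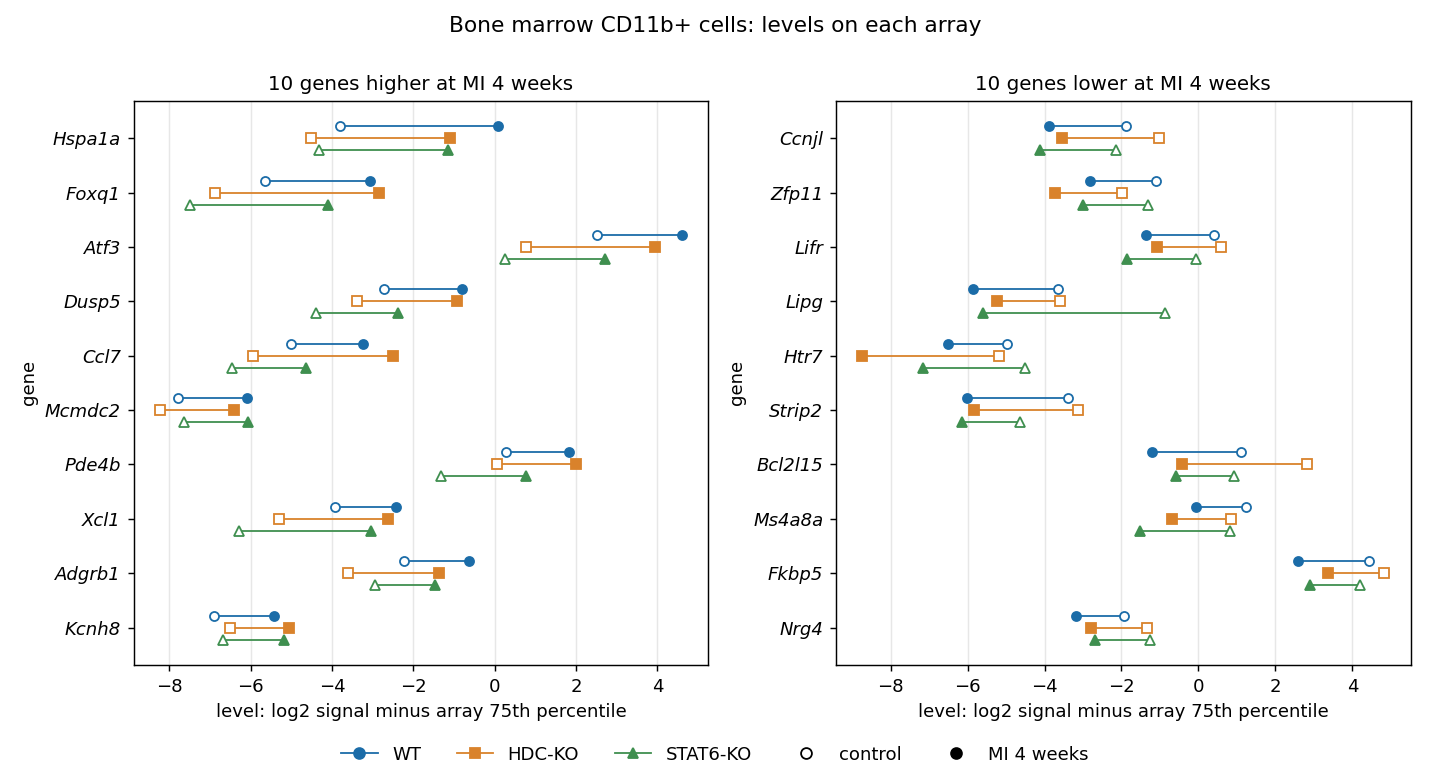
Level of the 10 leading higher and the 10 leading lower genes (log2 signal minus the array's 75th percentile) on each of the 6 bone marrow arrays, with open symbols for control, filled symbols for MI 4 weeks and a line for each genotype pair. Every line runs the same way for a gene because genes were taken for that, and for Hspa1a they run from -3.82 to 0.09 in WT, from -4.53 to -1.11 in HDC-KO and from -4.31 to -1.15 in STAT6-KO.

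Genes of the immediate early response, which cells switch on within minutes of a stimulus without new protein, were higher as a group. Of 15 tested, 10 were higher in 3 of 3 pairs and 0 lower, beside 19.3% and 18.4% of all genes, and 0 passed the adjusted test. The median of the list was 0.68, with 0.88 in WT, 0.78 in HDC-KO and 0.66 in STAT6-KO, against 0.04 for all genes. Besides Atf3, the largest differences were in Fosb, an AP-1 subunit, at 2.03 ± 0.31 (SE, n = 3 pairs), and Nr4a1, an orphan nuclear receptor, at 1.34 ± 0.19. Fosb lay at -0.31, -0.85 and -1.21 in control and at 2.25, 1.39 and 0.08 at MI 4 weeks. Fos itself was higher by 0.34 and Egr1 by 0.22, with Egr1 lower in WT and HDC-KO. In the WT and HDC-KO pairs alone, 12 of 15 were higher in both, beside 41.3% of all genes.

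Inflammatory cytokine and chemokine genes gave a similar picture. Of 17 tested, 13 were higher in 3 of 3 pairs and 0 lower, beside 19.3% and 18.4% of all genes, with a list median of 0.70 (0.43 in WT, 1.06 in HDC-KO and 0.71 in STAT6-KO), and 0 passed the adjusted test. Osm, which encodes oncostatin M, was 1.14 ± 0.20 higher (SE, n = 3 pairs), with levels of 2.02, 1.37 and 1.26 in control and 2.87, 2.52 and 2.68 at MI 4 weeks. Ccl2, the main chemokine for monocytes, differed by 1.30 in WT and 2.41 in HDC-KO and by only 0.04 in STAT6-KO. Il6 was higher by 1.11, Ccl3 by 0.95, Tnf by 0.82, Il1b by 0.70, Tgfb1 by 0.69 and Il1a by 0.30, each in 3 of 3 pairs. Il18 (-0.86, 0.24 and 1.08 in WT, HDC-KO and STAT6-KO) and Il10 (0.50, 1.52 and -0.36) went different ways. In the WT and HDC-KO pairs alone, 15 of 17 were higher in both, beside 41.3% of all genes.

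Hspa1a belongs to the list of heat shock and unfolded protein genes, whose median was 0.20. Of 10 tested, 4 were higher in 3 of 3 pairs, beside 19.3% of all genes. Ddit3, which encodes the stress factor CHOP, was 1.33 ± 0.17 higher (SE, n = 3 pairs). Dnajb1, the partner of HSP70, differed by -0.14, Hsp90aa1 by 0.05 and Hspa5, the chaperone of the endoplasmic reticulum, by 0.21. Hsph1, a chaperone of the HSP110 family, differed by 1.21 on average, with -0.44 in WT, 1.26 in HDC-KO and 2.81 in STAT6-KO. Chac1, a target of the ATF4 and CHOP pathway, was lower in 3 of 3 pairs, by 0.52 on average.

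Interferon-induced genes had the highest median of all the lists, at 1.49, but that size came from 1 pair. Their median was 0.61 in WT, 0.50 in HDC-KO and 3.08 in STAT6-KO. Of 13 tested, 11 were higher in 3 of 3 pairs and 0 lower, beside 19.3% and 18.4% of all genes, and 0 passed the adjusted test. In the WT and HDC-KO pairs alone 11 of 13 were higher in both, beside 41.3% of all genes, with a median of 0.63. Ifit3, an antiviral effector, lay at 1.64, 2.22 and -0.56 in the WT, HDC-KO and STAT6-KO controls and at 2.22, 2.93 and 4.86 at MI 4 weeks. The STAT6-KO pair thus held both the lowest and the highest level. Oasl2, an oligoadenylate synthetase-like gene, had differences of 1.47, 0.39 and 4.12. Cxcl10, which encodes a chemokine for activated T cells and was picked out after its values were seen, had 1.32, 1.39 and 1.44, a mean of 1.38 ± 0.16 (SE, n = 3 pairs; limma adjusted p = 0.375).

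The signals of the 13 interferon-induced genes, summed in units of each array's 75th percentile, were 59.3, 77.7 and 26.3 in the WT, HDC-KO and STAT6-KO controls and 84.3, 109.9 and 202.4 at MI 4 weeks. The most abundant was Rtp4 on every array. Markers of other cells moved in the STAT6-KO pair as well. The 14 B cell genes summed to 28.8, 55.1 and 11.5 in control and 32.1, 48.3 and 34.1 at MI 4 weeks, with Cd79b the most abundant and none of them at background. The 13 erythroid genes summed to 50.4, 34.3 and 11.3 in control and 23.0, 42.0 and 32.3 at MI 4 weeks, with Hba-a1 the most abundant. The STAT6-KO control array was thus the lowest of the 6 for all 3 lists. On the STAT6-KO marrow array of MI 2 weeks, the interferon-induced, B cell and erythroid medians differed from that control by 0.74, 0.77 and 0.32. At MI 4 weeks these differences were 3.08, 1.75 and 1.32. The part of these other cells, or of either array of the pair, in the STAT6-KO differences was not tested. In pooled samples, fewer cells of a type and less RNA per cell cannot be told apart.

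The promoters of the interferon-induced genes are shown because most of the list's members were higher in every pair. RefSeq promoter windows (build GRCm38.p6, 250 bases before to 50 after the start) were held for 11 of the 13, and 5 of these (45.5%) contained the core of the interferon-stimulated response element, searched as GAAANNGAAA on both strands, beside 3.99% of all 27025 genes with a window. The list was made of genes known to be induced by interferon. A share above that of all genes follows from this choice and is no result of these arrays. The stretches before the start site that hold it are given 5′ to 3′ in the direction of the gene, with the match in capitals, which may run together where matches overlap. They are Cxcl10 at chr5:92349063-92349132 (minus strand), Isg15 at chr4:156200845-156200926 (minus), Rsad2 at chr12:26456533-26456602 (minus), Ifit1 at chr19:34640755-34640843 (plus) and Ifit3 at chr19:34583343-34583446 (plus).
Cxcl10: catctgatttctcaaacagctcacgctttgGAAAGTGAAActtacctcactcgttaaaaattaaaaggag
Isg15: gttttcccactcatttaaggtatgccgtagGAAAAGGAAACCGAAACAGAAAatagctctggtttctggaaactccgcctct
Rsad2: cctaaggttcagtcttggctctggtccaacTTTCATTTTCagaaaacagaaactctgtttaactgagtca
Ifit1: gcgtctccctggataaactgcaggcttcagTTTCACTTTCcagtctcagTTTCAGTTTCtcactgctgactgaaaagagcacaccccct
Ifit3: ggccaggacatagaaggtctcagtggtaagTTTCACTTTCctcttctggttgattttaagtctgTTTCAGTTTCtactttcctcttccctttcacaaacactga

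In the WT pair the differences of these 5 genes ran from 0.11 in Ifit1 to 1.32 in Cxcl10, in the HDC-KO pair from 0.40 in Ifit1 to 1.39 in Cxcl10, and in the STAT6-KO pair from 1.44 in Cxcl10 to 5.42 in Ifit3. A match is a description of the sequence and not a measured binding site. The guanylate-binding proteins and immunity-related GTPases, which interferon gamma induces, had a median of 0.73, with 1.21 in WT, -0.31 in HDC-KO and 1.60 in STAT6-KO. Of 9 tested, 3 were higher in every pair and 0 lower, beside 19.3% and 18.4% of all genes, although all 8 with a promoter window (100%) held the same motif, beside 3.99% of all genes.

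Cell cycle genes had the lowest median of the lists, at -0.34, apart from the 4 sex-linked genes at -0.53. Of 24 tested, 15 were lower in 3 of 3 pairs and 0 higher, beside 18.4% and 19.3% of all genes, and 0 passed the adjusted test. The median was -0.75 in WT, -0.33 in HDC-KO and -0.17 in STAT6-KO, and in the WT and HDC-KO pairs alone 20 of 24 were lower in both, beside 28.8% of all genes. Cenpe, a kinesin of the kinetochore, lay at 1.63, 1.87 and 2.02 in the WT, HDC-KO and STAT6-KO controls and at 0.55, 0.92 and 1.12 at MI 4 weeks. Every MI 4 weeks level was below every control level, and the difference was -0.98 ± 0.16 (SE, n = 3 pairs; limma adjusted p = 0.375). Ccnb1, the mitotic cyclin B1, had a difference of -0.92 ± 0.25, while its other probes gave -0.19 and -0.40. Mki67, the Ki-67 antigen, had -0.40 and Aurkb, a mitotic kinase, -0.71. Of the replication helicase subunits, Mcm4 (-0.94, -0.34 and -0.05) and Mcm6 (-0.85, -0.68 and -0.0004) were below 0 in all pairs, and Mcm2, Mcm3, Mcm5 and Mcm7 did not go one way.

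Many cell cycle promoters carry the cell cycle genes homology region (CHR), a short element bound by the complexes that time mitotic transcription. Searched as TTTGAA on both strands, it was found in the windows of 8 of the 19 cell cycle genes that had one (42.1%), beside 20.2% of all genes. The share was higher in other lists, with 4 of 5 (80%) among the STAT6 target genes, 3 of 6 (50%) among azurophil granule genes and 4 of 8 (50%) among the GTPases, so it does not set the cell cycle list apart. Mki67 at chr7:135716442-135716525 (minus strand) and Cdc20 at chr4:118437344-118437391 (minus) are shown with the match in capitals.
Mki67: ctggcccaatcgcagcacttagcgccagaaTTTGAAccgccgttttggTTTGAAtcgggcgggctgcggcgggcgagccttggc
Cdc20: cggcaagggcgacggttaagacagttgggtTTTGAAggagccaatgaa

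The differences of Mki67 were -0.76, -0.25 and -0.18 in WT, HDC-KO and STAT6-KO and those of Cdc20, an activator of the anaphase-promoting complex, -0.43, -0.25 and -0.09, so both were lower in 3 of 3 pairs by less than 2-fold. Top2a, a DNA topoisomerase (-0.14, -0.46 and -0.23), and Cdk1, the mitotic kinase (-0.77, -0.53 and -0.11), also have the motif and were lower in every pair. Other genes with it went different ways, with -0.26, 0.09 and -0.74 in Ccnb2, a mitotic cyclin, -0.74, -0.27 and 0.31 in Kif11, a spindle kinesin, and -0.44, 0.24 and 1.06 in Mcm2.

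Genes of granule formation mark stages of neutrophil maturation. Azurophil granule proteins, made in promyelocytes, had a median of -0.29, and 4 of 8 were lower in every pair, beside 18.4% of all genes, among them Ctsg (cathepsin G, -0.53) and Ms4a3 (-0.45), with Elane (neutrophil elastase) at 0.14. In the WT and HDC-KO pairs alone 6 of 8 were lower in both, beside 28.8% of all genes. Specific and gelatinase granule proteins, made later, had a median of 0.69 in WT, 0.13 in HDC-KO and -0.35 in STAT6-KO. Of 10 tested, 8 were higher in both the WT and the HDC-KO pair, beside 41.3% of all genes, and 2 in every pair, a share near the 19.3% of all genes. Ltf (lactoferrin) followed that order with 0.74, 0.18 and -0.45, while Mmp9 (gelatinase B) was higher in all pairs, by 0.65 ± 0.21 (SE, n = 3 pairs). Mature neutrophil genes had a median of 0.08, with 0.31 in WT, 0.08 in HDC-KO and -0.29 in STAT6-KO. Monocyte and macrophage genes had one of 0.14, with -0.32, 0.39 and 0.18. In the WT and HDC-KO pairs alone the 2 medians were 0.18 and -0.07.

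The receptors that hold cells in the marrow or let them go went in both directions. Cxcr4, the retention receptor for CXCL12, lay at 3.34, 3.44 and 3.10 in the WT, HDC-KO and STAT6-KO controls and at 4.33, 4.24 and 3.85 at MI 4 weeks. Its groups did not overlap, and the difference was 0.85 ± 0.17 (SE, n = 3 pairs; limma adjusted p = 0.375). S1pr1, a receptor that guides cells into blood and lymph, was higher by 0.59. Ccr2, the receptor by which monocytes leave the marrow, was lower in 3 of 3 pairs, with a mean of -0.61. That mean rested largely on STAT6-KO, as Ccr2 had -0.29 in WT, -0.26 in HDC-KO and -1.29 in STAT6-KO. Itga4, the alpha chain of VLA-4, was also lower in 3 of 3 pairs, with -0.49. Cxcr2, the egress receptor of neutrophils, differed by -0.01.

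The other lists had these medians, beside 0.04 for all genes. Oxidative phosphorylation genes had a median of 0.04, with 2 of 23 higher and 2 lower in every pair beside 19.3% and 18.4% of all genes, cytosolic ribosomal protein genes one of 0.16, hypoxia and glycolysis genes 0.12, T cell genes 0.14, MHC class II genes 0.11, dendritic cell genes 0.15 and megakaryocyte and platelet genes -0.05. Eosinophil genes had -0.14 (-0.51 in WT, -0.35 in HDC-KO and -0.04 in STAT6-KO), with 3 of 7 (42.9%) lower in every pair and 0 higher. Basophil and mast cell genes had 0.40 (0.35, 0.07 and 0.82), with 3 of 8 (37.5%) higher and 0 lower. Progenitor and early myeloid genes had -0.17 (-0.41 in WT, -0.43 in HDC-KO and 0.26 in STAT6-KO). In the WT and HDC-KO pairs alone their median was -0.50, with 7 of 12 lower in both, beside 28.8% of all genes. Plasma cell genes had 0.49 (0.74, 0.44 and -0.45), with 2 of 7 higher and 2 lower in every pair. Macrophage genes that STAT6 is known to induce had 0.06 over 8 tested, with Mrc1, the mannose receptor, at -1.83 in WT, 0.58 in HDC-KO and 0.94 in STAT6-KO. NK and cytotoxic genes had -0.16, -0.08 and 1.07 in WT, HDC-KO and STAT6-KO, and B cell genes 0.04, -0.14 and 1.75.

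**Figure D3:**
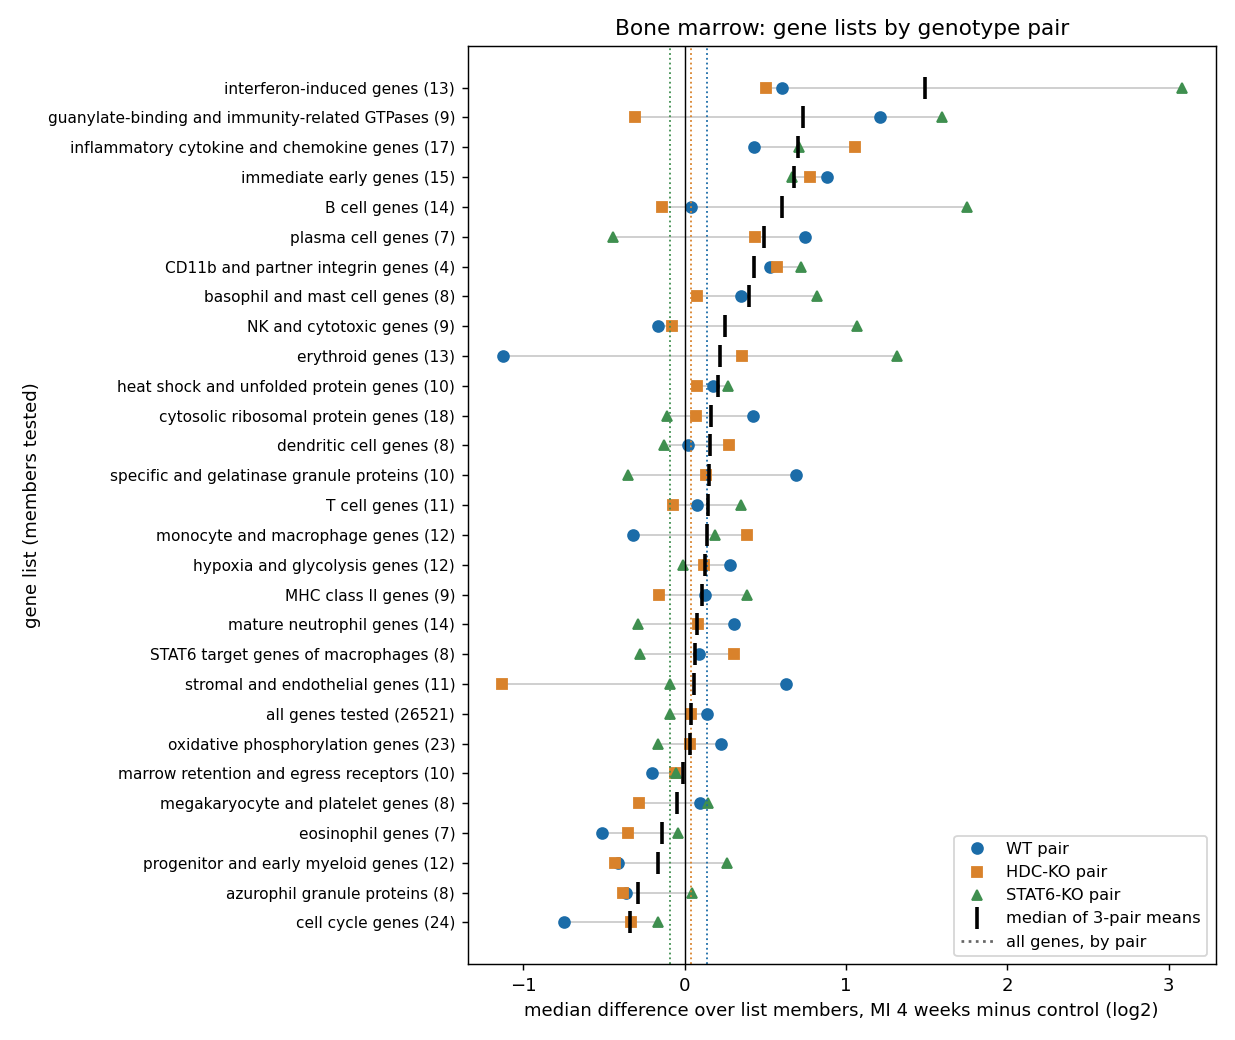
Median difference (MI 4 weeks minus control, log2) over the tested members of each gene list, with 1 symbol for each genotype pair, a black tick for the median of the 3-pair means and dotted lines for all genes in each pair. Immediate early genes (0.66 to 0.88) and cell cycle genes (-0.75 to -0.17) lie on 1 side of 0 in all pairs, whereas erythroid genes run from -1.13 in WT to 1.32 in STAT6-KO.

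The series also sampled the marrow 1 and 2 weeks after MI. Differences at each time are from the same control arrays, so they are given side by side. MI 1 week always lay on position 2, MI 2 weeks on position 3 and MI 4 weeks on position 4. Time and position thus cannot be told apart here either. Atf3, Dusp5, Fosb, Fkbp5, Ccnjl and Hspa1a were chosen for their distance between control and MI 4 weeks, and those arrays are used again here, so their values at the other times are a description. Between MI 2 weeks and MI 4 weeks, 0 of 26741 genes (0%) passed an adjusted p of 0.05 in limma, with 3183 at an unadjusted p under 0.05 and a smallest adjusted p of 0.391. The immediate early median was -0.20, -0.14 and 0.20 at 2 weeks in WT, HDC-KO and STAT6-KO, and 0.88, 0.78 and 0.66 at 4 weeks. At 1 week it was 0.95 in WT and 0.41 in HDC-KO, and the STAT6-KO array of that time was not used. Atf3 lay at 3.91 in WT and 1.84 in HDC-KO at 1 week and at 1.60, 0.81 and 1.35 at MI 2 weeks, below its 4-week levels of 4.61, 3.94 and 2.70, and the difference between both times was 2.49. Fosb differed by 2.38 between MI 2 and 4 weeks and Dusp5 by 1.93. At 1 week, Fosb was at 2.41 in WT and 1.08 in HDC-KO, beside 4-week levels of 2.25 and 1.39.

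Fkbp5 lay at 2.68, 3.94 and 2.94 at MI 2 weeks in WT, HDC-KO and STAT6-KO, and Ccnjl at -4.46, -2.97 and -3.73, against 4-week levels of -3.88, -3.54 and -4.12. Hspa1a lay at 0.10 in WT and -2.05 in HDC-KO at 1 week and at -1.30, -0.19 and -2.86 at 2 weeks. The interferon-induced median ran from 3.04 at 1 week through 1.76 at 2 weeks to 0.61 at 4 weeks in WT, and from 0.74 at 2 weeks to 3.08 at 4 weeks in STAT6-KO. In HDC-KO it was -0.16, -0.14 and 0.50.

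**Figure D4:**
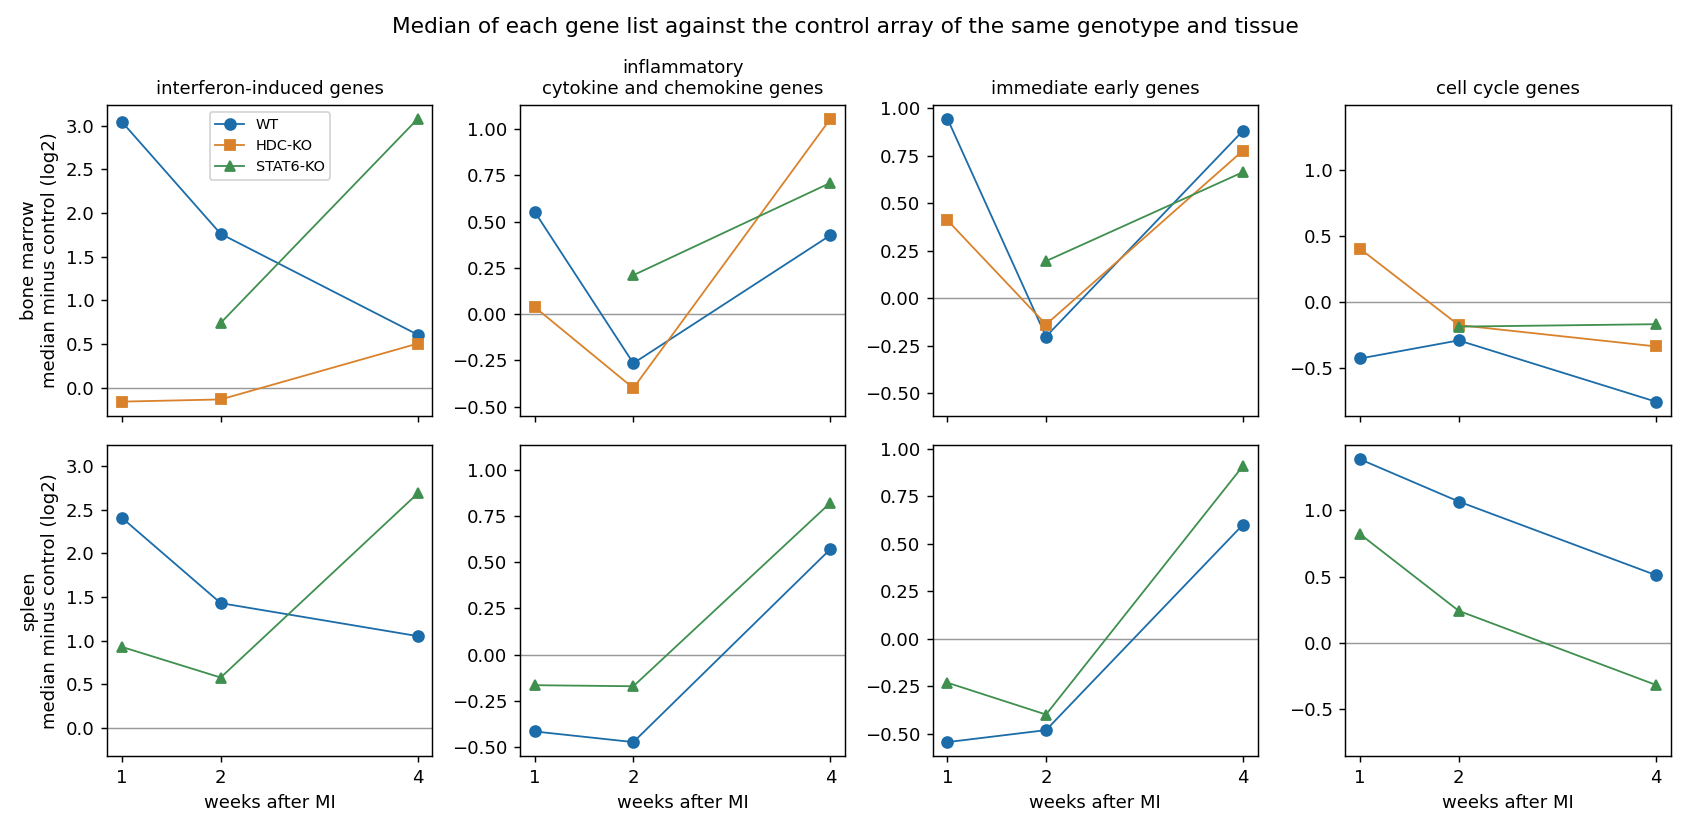
Median difference of 4 gene lists from the control array of the same genotype and tissue (log2), against weeks after MI, in bone marrow (upper panels) and spleen (lower panels), with 1 line for each genotype. In marrow the immediate early and cytokine medians lie between -0.40 and 0.21 at 2 weeks and between 0.43 and 1.06 at 4 weeks in all genotypes, and cell cycle medians are below 0 in marrow at 4 weeks and above 0 in WT spleen.

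The same comparison in spleen CD11b+ cells could be made for WT and STAT6-KO. By scan date these arrays were on slides of their own, with control again on position 1. The test between tissues set the marrow mean over 3 pairs, HDC-KO included, against the spleen mean over 2 pairs, so the genotypes were not matched. No gene's difference between tissues passed that test. Of 27105 genes, 0 (0%) had an adjusted p under 0.05 in limma, with 1072 at an unadjusted p under 0.05 and a smallest adjusted p of 0.963. Of the 10 leading higher genes of the marrow, 8 were higher in WT spleen and 9 in STAT6-KO spleen, beside 62.3% and 54.2% of all genes. Of the 10 leading lower genes, 9 were lower in WT spleen and 10 in STAT6-KO spleen, beside 37.7% and 45.8%. These counts take every signal as measured, although Ccl7, Foxq1, Kcnh8 and Mcmdc2 were not well above background on at least 1 of the 4 spleen arrays. Hspa1a was higher in spleen by 4.45 in WT and 4.51 in STAT6-KO, and Fkbp5 differed by -2.50 and -2.61.

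By list, the immediate early median in spleen was 0.60 in WT and 0.91 in STAT6-KO, and the cytokine and chemokine median 0.57 and 0.82. The interferon-induced median was 1.05 in WT spleen and 2.69 in STAT6-KO spleen. Cell cycle genes had 0.51 in WT spleen and -0.32 in STAT6-KO spleen, against -0.75 and -0.17 in marrow. The median over their marrow minus spleen differences was -0.47, where the marrow side also holds the HDC-KO pair. Cenpe was 0.81 higher in WT spleen and differed by -0.46 in STAT6-KO spleen, and its difference between tissues did not pass the test.

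**Figure D5:**
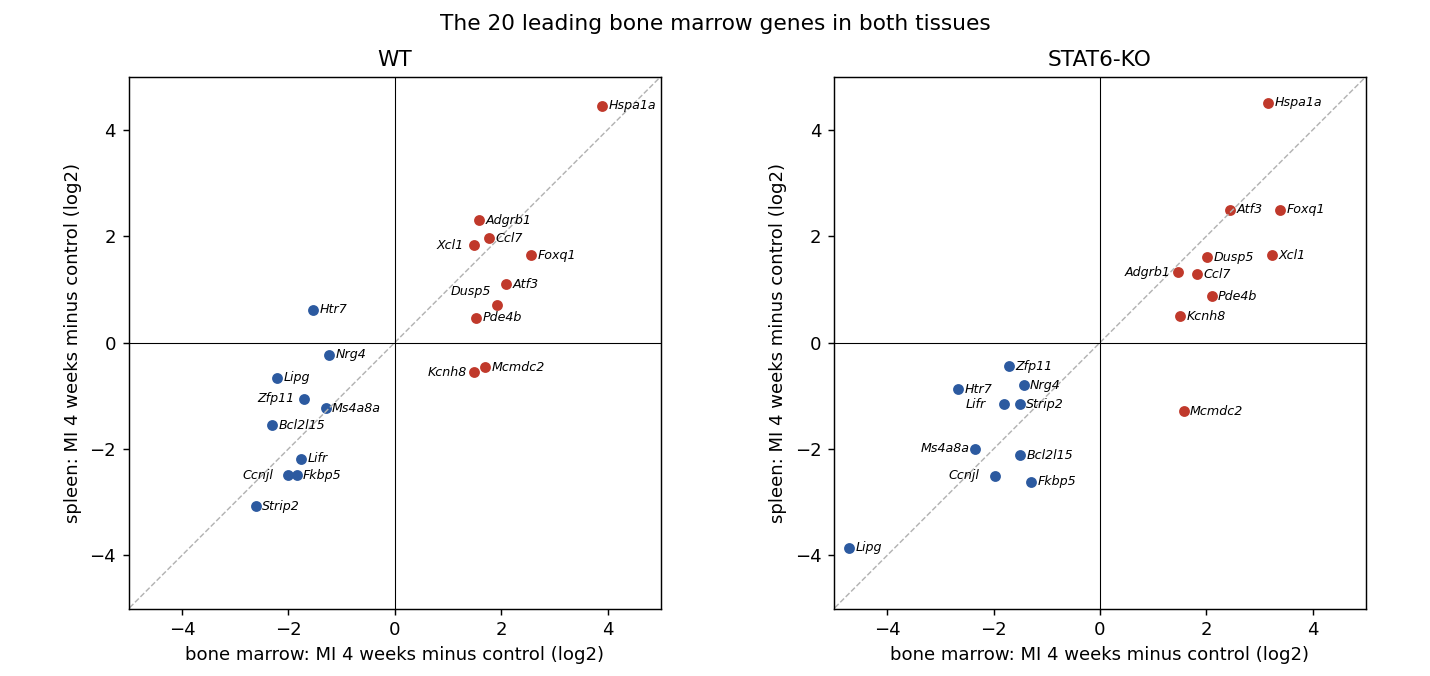
Difference (MI 4 weeks minus control, log2) of the 20 leading bone marrow genes in bone marrow (horizontal axis) and spleen (vertical axis), for WT and STAT6-KO, with genes higher in marrow in red, genes lower in marrow in blue and a dashed line for equal values. Hspa1a lies highest in both panels, at 4.45 and 4.51 in spleen. Signals not well above background are plotted as measured, which bears on Ccl7, Foxq1, Kcnh8, Mcmdc2 and Htr7.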

How the data were processed

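RNA of CD11b+ cells was labelled with Cy3 by the authors, hybridised to one-colour Agilent mouse arrays and read with Agilent Feature Extraction. The deposited values used are spot intensities on a linear scale (the processed signal, after background subtraction, with no scaling between arrays). The submitters' processing notes name GCRMA and the paper names Genespring, whose output was not used here. Of 24 arrays, 22 were used. The remaining files, of STAT6-KO marrow 1 week after MI and of HDC-KO control spleen, stop after 85 and 229 spots.

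Of 43020 spots that were not controls, 760 outliers on the 6 arrays were left out and 0 were saturated. Spots of the 39429 probes were averaged, and log2 intensities were reduced by the array's 75th percentile. RefSeq accessions (assembly GRCm38.p6) named 27234 probes, for 20659 genes, and the other 12195 probes kept the array's name. A gene with several probes was read from the one brightest over the bone marrow arrays. Probes well above background on at least 2 of the arrays compared were tested with limma 3.58.1 in R 4.3.3 (lmFit, eBayes, two-sided, genotype as a block, Benjamini-Hochberg). The labels carry no replicate numbers. The pairs are the genotypes, and each genotype is also a slide, as inferred from the scan date. The number of arrays limits the precision, with 2 residual degrees of freedom. The scripts were tested on simulated data.

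Leading genes were the 10 a direction with the largest smallest difference over the 3 pairs, among genes with a symbol that differed the same way in every pair and were well above background on all arrays of the higher group. No gene passed the threshold that came first in the rule. From each gene list, the 2 highest and 2 lowest members were followed further, and results of some of them are not reported here. The lists and their members, like the comparison itself, were chosen with earlier results of these data known. Alternatives tried were background correction, scaling, filters, probes, the block, the variance prior, the methods' t-test and leaving out each pair.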

Additional observations from a re-analysis of the deposited data

Results flagged for a closer look

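In 2 gene lists the median difference between MI 4 weeks and control went opposite ways in a pair of genotypes by at least 0.5 on the log2 scale on each side. The erythroid median was -1.13 (-1.125) in WT and 1.32 (1.315) in STAT6-KO. Hba-a1, an alpha globin, had -1.63 in WT and 1.73 in STAT6-KO, and Klf1, the erythroid transcription factor, -0.59 and 2.16. The HDC-KO pair lay between, with an erythroid median of 0.35. The stromal and endothelial median was 0.62 (0.6247) in WT and -1.13 (-1.134) in HDC-KO, with -0.09 in STAT6-KO. Neither difference was tested, since each genotype has 1 pair.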

How the results depend on the processing

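With limma, 0 genes passed the adjusted threshold for MI 4 weeks against control under every limma alternative, including no replicate block (0 genes; 2866 at an unadjusted p under 0.05). For the comparisons with MI 2 weeks and with spleen, also 0 passed under normexp, quantile normalization, median scaling, both filters, no block and leaving out each pair, and the others were not run. The methods' t-test with a fold change over 2 and an unadjusted p under 0.05 gave 333 genes. The 79 genes at least 2-fold higher in every pair became 30 with normexp background correction and 42 when every array had to be well above background. The 33 genes at least 2-fold lower became 10 with normexp, 61 with quantile normalization and 59 with median scaling. Leaving out a pair gave 198 genes higher without HDC-KO, 203 without WT and 1150 without STAT6-KO, and 83, 169 and 183 lower, since fewer pairs had to be alike. Of the medians of the 30 lists under all alternatives, 409 moved by less than the spread between pairs and 11 by more, and for the single genes named 1607 and 12. The median of all genes moved by at most 0.09 under any scaling. Differences of the 20 leading genes kept their sign under all alternatives run for each, but some became smaller by over 1.5 times. With normexp, Foxq1 (3.33) had 1.50, Ccl7 (2.35) 1.25, Xcl1 (2.47) 1.39, Kcnh8 (1.49) 0.64, Lipg (-2.86) -1.62 and Strip2 (-2.28) -0.92. With the mean over a gene's probes, Pde4b (1.86) had 0.87, Kcnh8 0.30, Zfp11 (-1.72) -0.94, Lifr (-1.75) -0.87 and Strip2 -0.99. Mcmdc2 and Htr7, given as bounds, had 0.54 and -0.43 with normexp and 0.41 and -1.65 with the floor. No paired analysis by replicate number was possible because the labels give none. With 1 pool a genotype, the spread between pools of 1 genotype was not measured.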

Other observations

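Fkbp5, among the leading lower genes, is a textbook target of glucocorticoids. Another 7 such targets were picked after the values were seen and are described with no test. Of these, Klf9 (-0.51), Ddit4 (-0.41) and Errfi1 (-0.67) were lower in 3 of 3 pairs, as were 18.4% of all genes. The others went different ways between pairs. Zbtb16 was at -1.02, -1.30 and 0.26 in WT, HDC-KO and STAT6-KO, and Tsc22d3 at 0.01, -0.22 and -0.57. Sgk1 was at -0.16, 0.03 and -0.36, and Per1 at -0.01, -0.03 and 0.73.

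A further 5 genes outside the rule for leading genes were also picked after their values were seen and are given with no test. Ifng, the gene of interferon gamma, was higher by 1.37 in WT, 2.01 in HDC-KO and 3.22 in STAT6-KO. Cd69, an early activation marker of leukocytes, was higher by 1.01, 1.44 and 1.66, Hcar2, a receptor for nicotinic acid and ketone bodies, by 1.47, 2.02 and 2.16, and Fosl1, an AP-1 subunit, by 1.91, 3.13 and 1.19. Cdkn1a, the inhibitor p21 of cyclin-dependent kinases, was higher by 0.76, 1.13 and 1.32.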
